A study of Saccharomyces cerevisiae with 50 samples.

Results

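The promoters of 10 nitrogen assimilation genes of Saccharomyces cerevisiae were examined for called ChIP-Seq peaks of 6 transcription factors. The genes are the ammonium permease genes MEP1, MEP2 and MEP3, the glutamine and glutamate synthesis genes GLN1, GLT1, GDH1 and GDH3, the glutamate degradation gene GDH2, and the regulator genes DAL80 and UGA3. The rule lists them by name and uses no score, but they were proposed with earlier results of these data known. Each promoter is the 600 bp upstream of the gene start in the R64 annotation, and these 10 are part of the 6430 promoters so defined. Occupancy in an immunoprecipitation (IP) means here that a called peak overlapped the promoter by at least 1 bp. The promoter then took the score of that peak, or 0 where no peak overlapped.

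Yeast takes up ammonium through the Mep permeases, of which Mep2p has the highest affinity and also acts in filamentous growth. Ammonium is joined to 2-oxoglutarate by the NADP-dependent glutamate dehydrogenases Gdh1p and Gdh3p, and to glutamate by the glutamine synthetase Gln1p. The glutamate synthase Glt1p returns glutamate from glutamine, and the NAD-dependent Gdh2p releases ammonium from glutamate. Dal80p is a GATA-type repressor of nitrogen catabolic genes, and Uga3p activates the genes for use of γ-aminobutyrate (GABA). Gcn4p is the activator of amino acid biosynthesis genes, and Rtg3p, a basic helix-loop-helix protein that works with Rtg1p, activates genes that supply 2-oxoglutarate. Rapamycin inhibits the TOR kinase complex that reports nitrogen supply.

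The series holds 30 IPs and 20 INPUT samples from W303 strain Z1256, in which a myc-tagged factor was precipitated from wild-type cells and from cells whose cofactor gene had been deleted. Gcn4p was assayed in wild-type and rtg3Δ cells and Rtg3p in wild-type and gcn4Δ cells, with 3 IPs per strain, all after 20 minutes of rapamycin at 100 nM in YPD medium. Nrg1p in wild-type and sut1Δ cells and Sut1p in wild-type and nrg1Δ cells, also with 3 IPs per strain, came from YPD cultures in exponential growth without rapamycin. Swi4p in wild-type and swi6Δ cells had 1 IP per strain and was grown in the same way, whereas for Swi6p in wild-type and swi4Δ cells, with 2 IPs per strain, the labels state no growth conditions. Wild-type replicates of a factor were aliquots of a single culture and deletion strains were grown separately, so a strain difference and a culture difference cannot be told apart, and P-values measure only the spread between these IPs. All 12 IPs of Gcn4p and Rtg3p came from rapamycin-treated cells, so no comparison with untreated cells is made here.

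The peak lists hold 8486 peaks, from 3 to 1065 per IP, and no read counts, so the depth of each library is unknown. The score of a peak rises as its MACS P-value falls, and it is at least 50 in every list. A score of exactly 3100 is the maximum of several lists, although the highest score of all lists is 3227. Whether the order of scores near 3100 follows the P-value was not tested. Among the Gcn4p lists the first rtg3Δ IP stands apart, with a median score of 446 and a median peak width of 751 bp, against median scores of 142 to 217 and widths of 1185.5 bp or more in the other 5. Results that rest on it are therefore also given without it. Scores are compared beside the rank of the peak in its own list, given as a percentile, because lists of different strength give different scores.

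Of the 10 promoters, 7 had a peak in at least 1 of the 30 IPs. MEP1, MEP3 and GDH2 had none, which is 30% of the listed promoters against 49.8% of all promoters. DAL80 was occupied in 1 IP, GLN1 and GDH1 in 2 each, GDH3 in 6, MEP2 in 8, and GLT1 and UGA3 in 10 each. GLT1 and UGA3 are transcribed away from each other across a gap of 677 bp, and their promoter windows share 523 bp. Every peak over one of these promoters also covered the other, so they are not independent, and the counts of promoters given here include this region under both names unless stated otherwise. The order of occupancy therefore runs from the GLT1–UGA3 region through MEP2 and GDH3 to promoters with few or no peaks.

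**Figure D1:**
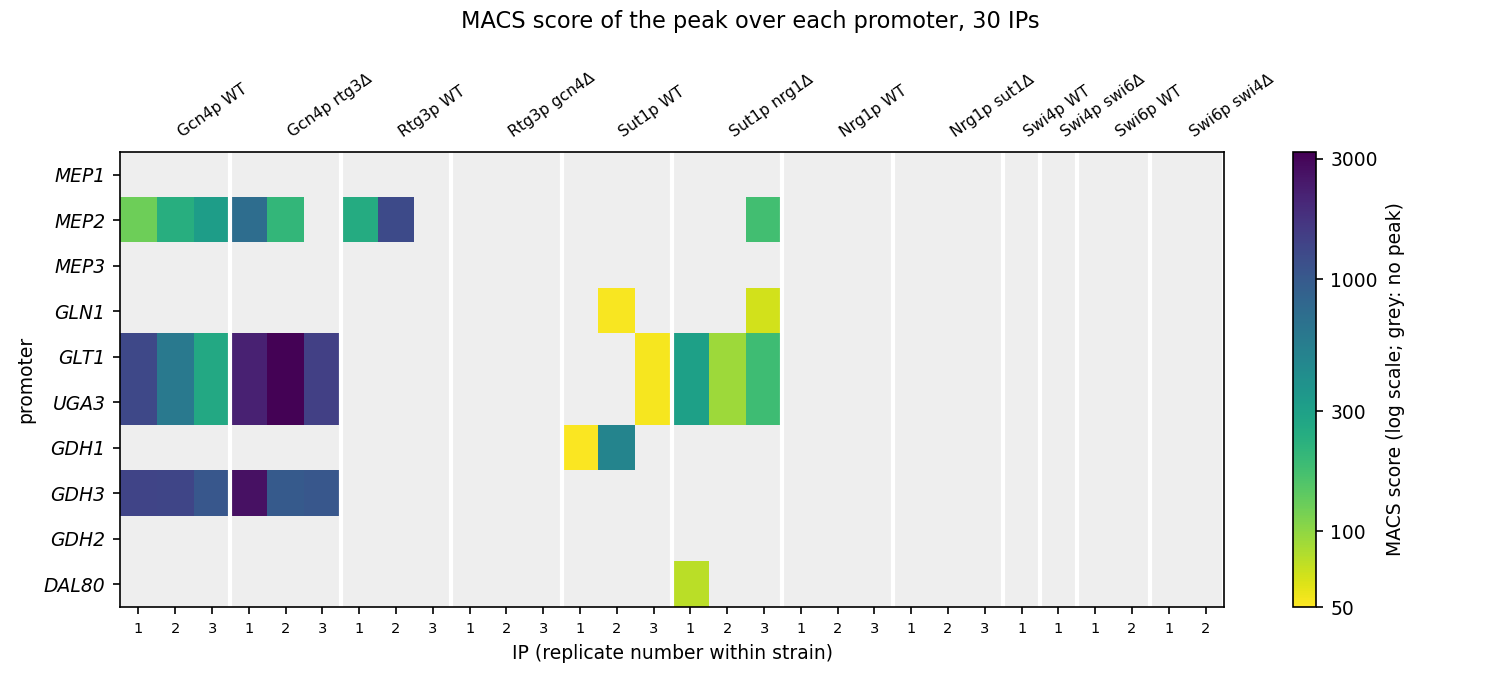
MACS score of the peak over each of the 10 promoters (rows) in each of the 30 IPs (columns, grouped by factor and strain), with color on a log scale and grey where no peak was called. Gcn4p peaks lie over GLT1, UGA3, GDH3 and MEP2, Rtg3p peaks over MEP2, and Sut1p peaks over 6 of the 10 promoters, while the Nrg1p, Swi4p and Swi6p columns are empty.

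The first comparison asks where Gcn4p was found in rapamycin-treated cells and whether this differed without Rtg3p. Gcn4p occupied the same 4 listed promoters, GLT1, UGA3, GDH3 and MEP2, in each of the 3 wild-type IPs. A peak in all 3 wild-type IPs was found at 4.12% of all promoters. In rtg3Δ cells GLT1, UGA3 and GDH3 were occupied in all 3 IPs, as were 3.28% of all promoters, and MEP2 in 2. The mean number of occupied listed promoters per IP was 4 in the wild type and 3.67 ± 0.577 (SD, n = 3) in rtg3Δ cells, beside 10.1% and 8.53% of all promoters.

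At the GLT1–UGA3 region (GLT1, YDL171C, chromosome IV, 149203 to 155640, minus strand, and UGA3, YDL170W, 156318 to 157904, plus strand) the wild-type Gcn4p scores were 1302, 593 and 259 in IPs 1, 2 and 3. The rtg3Δ scores were 2198, 3135 and 1463. All 3 rtg3Δ scores thus lay above all 3 wild-type scores. The mean was 718 ± 532 in the wild type and 2266 ± 838 in rtg3Δ cells (SD, n = 3), with an exact two-sided permutation P of 0.1, the smallest that 3 against 3 IPs can give, and an adjusted P of 1 over the 1501 promoters with a Gcn4p peak. Scores without overlap and higher in rtg3Δ cells were found at 0.653% of all promoters, at 2.8% of those with a Gcn4p peak in any IP, and at 9.49% of the 137 promoters with a peak in all 6 IPs.

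The separation of the strains at GLT1–UGA3 depended little on the library that stands apart. Without the first rtg3Δ IP the mean difference of wild type minus rtg3Δ was -1581, against -1548 with it. Its size varied more with other IPs, from -1949 to -1113 leaving out single IPs, with -1113 without the second rtg3Δ IP. As percentiles of their own lists the wild-type peaks stood at 88.0, 84.7 and 70.9 and the rtg3Δ peaks at 88.1, 99.8 and 92.6, so the order held by rank but the closest wild-type and rtg3Δ values were nearly equal. The percentile of 99.8 belongs to the score of 3135, which lies near 3100, where the order of scores is uncertain. Divided by the median score of the 137 promoters shared by all 6 lists, the scores were 1.43, 0.692 and 0.63 in the wild type. The rtg3Δ values on this scale were 1.61, 4.26 and 1.44, where the separation again rested on a narrow gap between the first wild-type IP and the third rtg3Δ IP.

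The Gcn4p peaks between GLT1 and UGA3 were 1033 to 1467 bp wide and covered both 600-bp windows entirely in all 6 IPs. Their midpoints lay 120 to 244 bp upstream of UGA3, which is 434 to 558 bp upstream of GLT1. The center of the called region was thus nearer to the regulator gene than to the glutamate synthase gene in every Gcn4p IP.

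**Figure D2:**
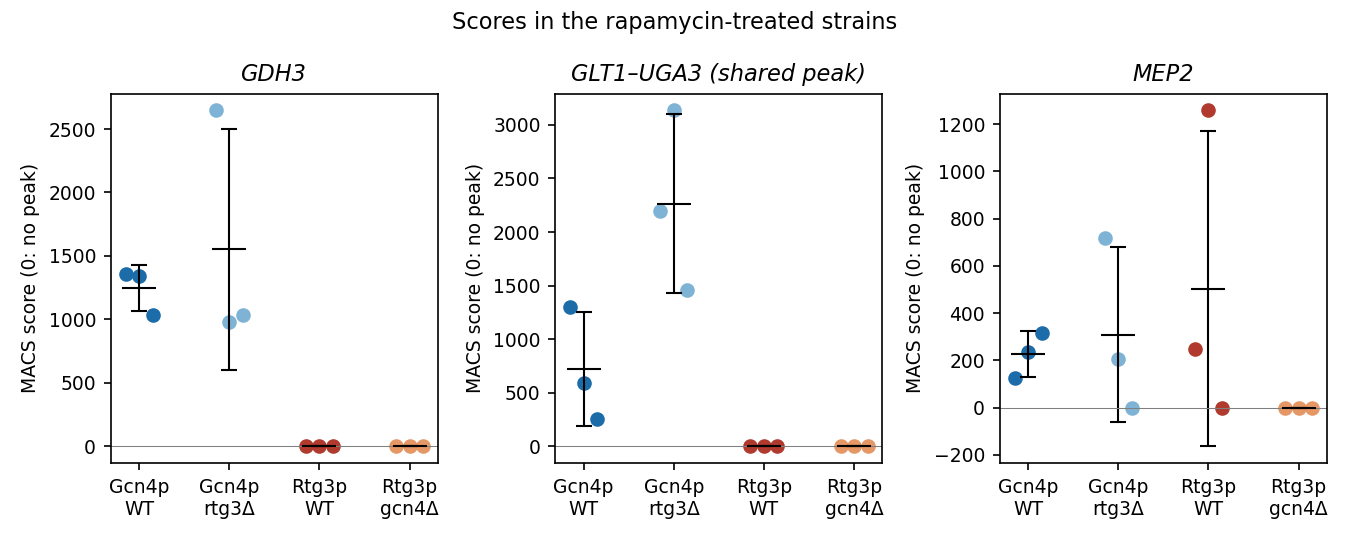
MACS scores in the rapamycin-treated strains for GDH3, GLT1–UGA3 and MEP2, with 1 point per IP, 0 where no peak was called, a horizontal line at the mean and bars for the SD (n = 3). The rtg3Δ scores at GLT1–UGA3 run from 1463 to 3135, above the wild-type scores of 259 to 1302, while at GDH3 and MEP2 the strains overlap.

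GDH3, for the NADP-dependent glutamate dehydrogenase used chiefly on non-fermentable carbon sources, lies at YAL062W on chromosome I, 31567 to 32940, plus strand. Its wild-type Gcn4p scores were 1356, 1344 and 1038. The rtg3Δ scores were 2648, 979 and 1031. Both lower rtg3Δ scores fell below every wild-type score and the first rtg3Δ IP lay above them all, so the strains overlapped. The difference between the means of 1246 ± 180 and 1553 ± 949 (SD, n = 3) was within the spread of the IPs (exact permutation P = 1, adjusted P = 1).

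The direction at GDH3 turned with the scale. Without the first rtg3Δ IP the wild-type mean was higher by 241, and the remaining scores no longer overlapped, by a margin from 1031 to 1038. By percentile the wild-type peaks stood at 88.6, 93.1 and 93.4 and the rtg3Δ peaks at 90.3, 80.3 and 87.7. These GDH3 peaks were alike in position in all 6 IPs, reaching 329 to 478 bp into the promoter, with midpoints 116 to 176 bp downstream of the gene start. The center of every GDH3 peak therefore lay inside the annotated gene, and none would count if the midpoint had to lie in the promoter.

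**Figure D3:**
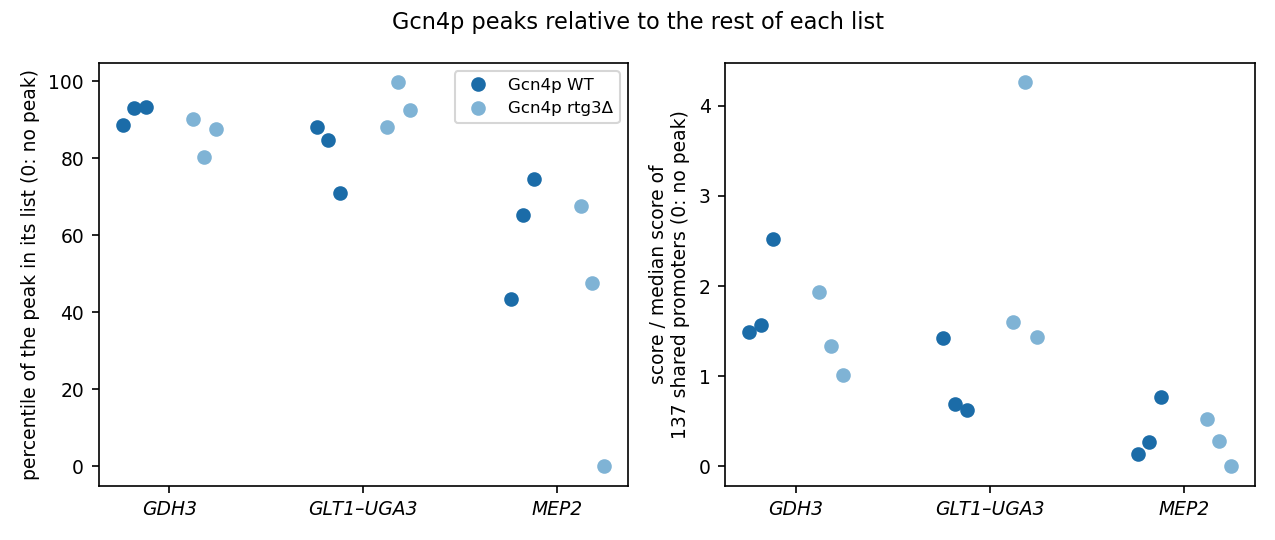
Gcn4p peaks at GDH3, GLT1–UGA3 and MEP2 as the percentile of the peak in its list (left) and as the score divided by the median score of 137 promoters with a peak in all 6 Gcn4p IPs (right), 1 point per IP, 0 where no peak was called. The rtg3Δ points at GLT1–UGA3 start at 88.1 on the left and 1.44 on the right, just above the highest wild-type points of 88.0 and 1.43.

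MEP2 (YNL142W, chromosome XIV, 357453 to 358952, plus strand) was the only ammonium permease gene with a peak. Its Gcn4p scores were 125, 235 and 318 in the wild type. In rtg3Δ cells they were 720 and 204 in IPs 1 and 2, and no peak was called in IP 3. The strains overlapped, and the difference between the means of 226 ± 96.7 and 308 ± 371 (SD, n = 3) was within the spread of the IPs (exact permutation P = 0.9, adjusted P = 1). Without the first rtg3Δ IP the wild-type mean was higher by 124, the opposite direction. The percentiles of 43.4, 65.3 and 74.8 in the wild type placed MEP2 lower in 2 of the 3 wild-type lists than GLT1–UGA3, and lower than GDH3 in all 3.

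The Gcn4p regions at MEP2 varied in place more than those at the other promoters. In wild-type IPs 1 and 2 the peak overlapped the promoter by 97 and 40 bp, with midpoints 506 and 531 bp inside the gene. The peak of wild-type IP 3 was 2521 bp wide and reached the promoter of the next gene, AAH1. In rtg3Δ cells the first IP had a peak of 632 bp centered 401 bp upstream of MEP2, and the second a peak of 2555 bp. Required to overlap by at least 100 bp, MEP2 was occupied in 1 wild-type and 2 rtg3Δ IPs. The promoter window of MEP2 also holds 334 bp of the gene YNL143C.

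AAH1, which encodes adenine deaminase and begins 643 bp downstream of MEP2 (YNL141W, 359596 to 360639), was named because its promoter lay under the same peak as MEP2. In the first rtg3Δ Gcn4p IP it had a peak of its own with a score of 1584. The next neighbors in the annotation thus carried separate peaks in that IP and a joined region in wild-type IP 3, and the MEP2 score of a joined region cannot be assigned to either promoter alone.

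The second comparison concerned Rtg3p in wild-type and gcn4Δ cells under rapamycin. MEP2 was the only listed promoter with an Rtg3p peak. Its wild-type scores were 249 in IP 1 and 1259 in IP 2, no peak was called in IP 3, and none was called in the 3 gcn4Δ IPs. Of all promoters, 2.32% were occupied by Rtg3p in 2 or more wild-type IPs, and 1.2% were so occupied with no gcn4Δ peak. The mean of 502 ± 667 against 0 (SD, n = 3) gave an exact permutation P of 0.4 (adjusted P = 1). The third wild-type IP was also at 0, so the groups overlapped, and 0.295% of all promoters were separate with the wild type higher. Without wild-type IP 3 the MEP2 scores of the strains were separate, and without wild-type IP 2 the mean difference was 124. The number of peaks per list was 117 to 297 in wild-type and 46 to 216 in gcn4Δ IPs. With equal numbers of peaks per list the MEP2 difference was the same, 502.

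Within its lists the MEP2 peak stood high where it was called. It ranked 24th of 297 peaks in wild-type IP 1 and second of the 117 in IP 2, and its mean score was the second highest of the 516 promoters with a wild-type Rtg3p peak. This rank rested on IP 2, whose region also covered the AAH1 promoter, and without that IP the mean of 124 ranked 89th of 457 promoters. The peak of IP 1 was 1557 bp wide and centered 135 bp upstream of MEP2. That of IP 2 was 3410 bp wide and ran from upstream of MEP2 through the AAH1 promoter. In IP 3, where MEP2 had none, AAH1 had a peak with a score of 137, and in the first gcn4Δ IP AAH1 had a peak of 76.6.

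**Figure D4:**
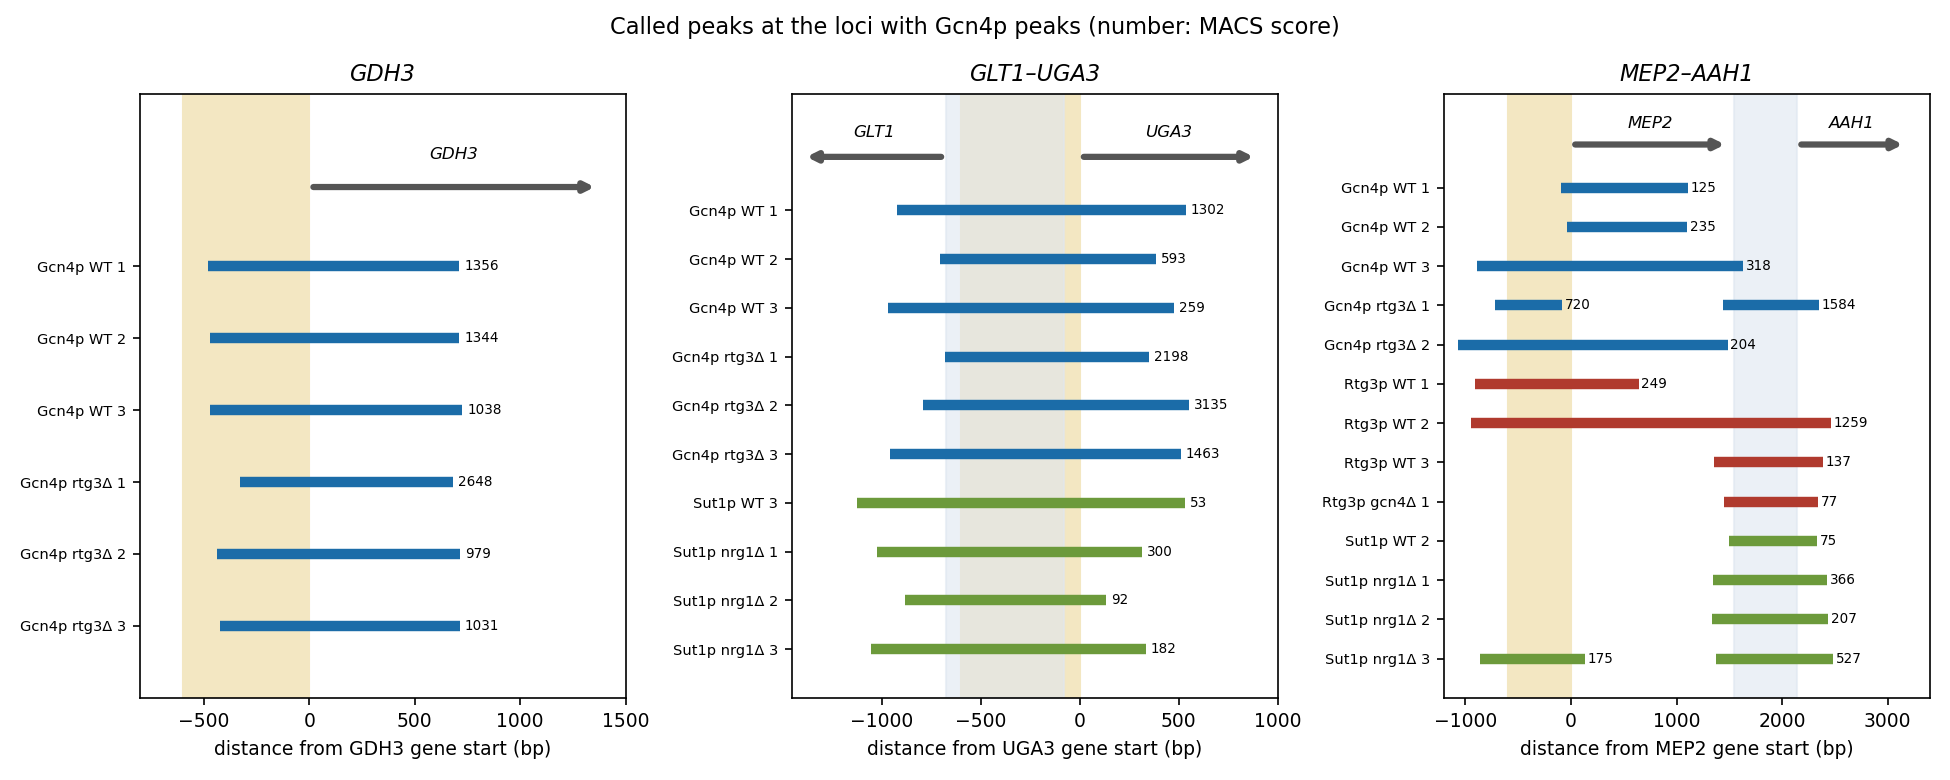
Called peaks (bars, with their MACS scores) at GDH3, GLT1–UGA3 and MEP2–AAH1, by distance in bp from the gene start of GDH3, UGA3 and MEP2, with blue for Gcn4p, red for Rtg3p and green for Sut1p. Shading marks the 600-bp promoters, yellow for GDH3, UGA3 and MEP2 and pale blue for GLT1 and AAH1, with overlaps of the windows in grey. Gcn4p peaks at GDH3 and GLT1–UGA3 keep their place between IPs, whereas Gcn4p and Rtg3p peaks at MEP2 are 632 to 3410 bp wide. Sut1p midpoints at GLT1–UGA3 lie on the GLT1 side of the Gcn4p midpoints.

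Set side by side in the wild type, Gcn4p and Rtg3p occupied different numbers of the listed promoters, 4 in each Gcn4p IP against a mean of 0.667 ± 0.577 (SD, n = 3) for Rtg3p. All promoters showed 10.1% and 3.64% occupancy. At GLT1, UGA3 and GDH3 every Gcn4p score lay above the Rtg3p scores, which were all 0 (exact permutation P = 0.1, adjusted P = 0.603), and such separation was found at 3.44% of all promoters. MEP2 had peaks of both factors in at least 2 wild-type IPs each, as had 0.918% of all promoters, and its scores overlapped between the factors (exact permutation P = 0.8, adjusted P = 1). This joint occupancy was lost under 2 other rules. With an overlap of at least 100 bp, MEP2 had Gcn4p in 1 and Rtg3p in 2 wild-type IPs. With the peak midpoint in the promoter, it had Gcn4p in 0 and Rtg3p in 1. With each list limited to the number of peaks in the shortest, 117, GDH3 alone stayed separate, and MEP2 kept its Rtg3p scores but no Gcn4p peak. This comparison uses the same wild-type Gcn4p IPs as the comparison with rtg3Δ cells. Gene lists of the study that were drawn from these wild-type samples name MEP2 as a joint target and GLT1 and UGA3 as targets of Gcn4p alone, so their wild-type occupancy is not independent evidence for those lists.

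The remaining 6 listed promoters had no Gcn4p or Rtg3p peak in any of the 12 rapamycin IPs. Of all 6430 promoters, 1501 had a Gcn4p peak and 667 an Rtg3p peak in any of these IPs, so most had neither. The nearest Gcn4p peak on the chromosome, upstream or downstream, was 1576 to 8934 bp away from the promoter for MEP1, 4501 to 12481 bp for MEP3 and 2637 to 7921 bp for GLN1. It was 8738 to 8769 bp away for GDH1, 4754 to 29511 bp for GDH2 and 4312 to 10894 bp for DAL80. The closest approach of a Gcn4p peak to any of these promoters was thus 1576 bp, at MEP1. That peak, at 730312 to 731351 in wild-type IP 1, lay downstream, so the distance spans the MEP1 gene. MEP1 is YGR121C (chromosome VII, 731449 to 732927, minus strand), MEP3 is YPR138C (chromosome XVI, 810984 to 812453, minus strand), and GLN1 is YPR035W (chromosome XVI, 642208 to 643320, plus strand). GDH1 is YOR375C (chromosome XV, 1041678 to 1043042, minus strand), GDH2 is YDL215C (chromosome IV, 70640 to 73918, minus strand), and DAL80 is YKR034W (chromosome XI, 506898 to 507707, plus strand).

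The third comparison concerned Sut1p, a zinc cluster protein known for sterol uptake genes, in wild-type and nrg1Δ cells without rapamycin. A Sut1p peak in at least 1 of the 6 IPs was called at 6 of the 10 promoters, against 32% of all promoters. The mean number of occupied listed promoters was 1.67 ± 0.577 in the wild type and 3 ± 1 in nrg1Δ cells (SD, n = 3). The share of all promoters was 7.02% and 15.6% in these strains, with 117 to 579 peaks per wild-type list and 696 to 1065 per nrg1Δ list. Each Sut1p strain had 1 INPUT sample, so a difference between strains cannot be told apart from one between these INPUT samples. With equal numbers of peaks per list the mean difference in occupied listed promoters was 0, and with GLT1 and UGA3 as 1 promoter that of wild type minus nrg1Δ was -0.667, against -1.33.

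GLT1–UGA3 was again the most occupied region. Its Sut1p score in the wild type was 52.8 in IP 3, with no peak in IPs 1 and 2. In nrg1Δ cells the scores were 299.6, 92.4 and 182, all above the wild type. The means were 17.6 ± 30.5 and 191 ± 104 (SD, n = 3), with an exact permutation P of 0.1 and an adjusted P of 0.608, and 5.18% of all promoters were separated in this direction. With a score of at least 100, or with equal numbers of peaks, the groups were no longer separate. The Sut1p midpoints lay 296 to 374 bp upstream of UGA3, on the GLT1 side of all Gcn4p midpoints.

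GDH1, for the main NADP-dependent glutamate dehydrogenase on glucose, showed Sut1p peaks in the wild type alone. Its scores were 51.7 in IP 1 and 489.9 in IP 2, with no peak in IP 3 and none in nrg1Δ cells. The groups overlapped at 0 (mean 181 ± 269 against 0, SD, n = 3, exact permutation P = 0.4, adjusted P = 0.961), and 1.15% of all promoters had this pattern of 2 or more wild-type peaks and no nrg1Δ peak. Without wild-type IP 2 the mean difference fell to 25.8, and the groups were separate without IP 3. The lower of the GDH1 scores was the last of the 117 peaks in its list. The GDH1 window also holds 369 bp of YOR376W.

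The other Sut1p peaks over listed promoters appeared in no more than 1 IP of a strain. GLN1 had a score of 52.3 in wild-type IP 2 and of 66.9 in nrg1Δ IP 3. MEP2 had 175 in nrg1Δ IP 3, above the list's median of 129, in a peak centered 366 bp upstream of the gene. DAL80 had 76.5 in nrg1Δ IP 1, in a peak overlapping its promoter by 154 bp and centered 460 bp inside the gene. The same peak lay over the promoters of DID2 and SPO14. GLN1, MEP2 and DAL80 were thus each without a peak in at least 2 IPs of each strain. AAH1, beside MEP2, had Sut1p scores of 366, 207 and 527 in nrg1Δ cells, and of 74.5 in wild-type IP 2.

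Nrg1p, a repressor of glucose-repressed genes, and Swi4p and Swi6p, the subunits of the G1 factor SBF, had no peak over any of the 10 promoters in any IP of either strain. This was also so for 85.8% of all promoters. The Nrg1p lists are short, with 9 to 49 peaks, and the swi4Δ Swi6p lists hold 3 and 8. The Swi6p wild-type IPs, with 204 and 228 peaks, and the swi6Δ Swi4p IP, with 182, also held none at these promoters.

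**Figure D5:**
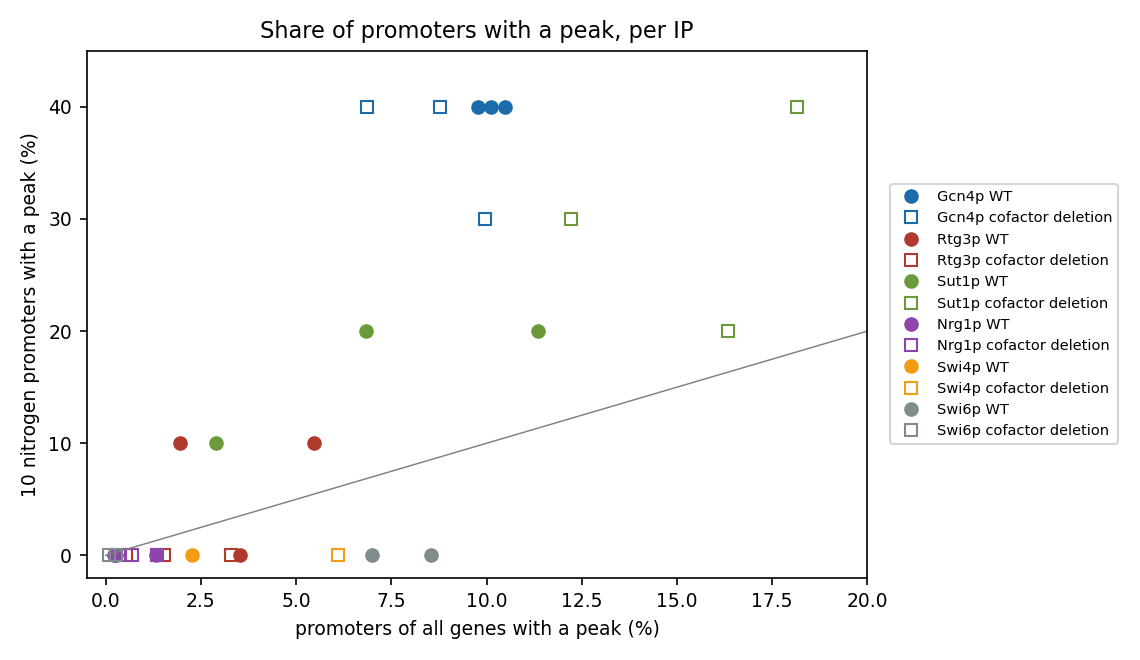
Share of the 10 listed promoters with a peak against the share of all promoters with a peak, in percent, 1 point per IP, with filled circles for wild-type and open squares for cofactor-deletion strains and a line where both shares are equal. The 6 Gcn4p IPs lie at 30 to 40% of the listed promoters, beside 6.87 to 10.5% of all promoters, and 1 promoter of the 10 is a step of 10%.

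By the pattern of presence over the 12 Gcn4p and Rtg3p IPs, GLT1, UGA3 and GDH3 shared theirs, a peak in all 6 Gcn4p IPs and in no Rtg3p IP, with 1.73% of all promoters. Of those identical in pattern (Jaccard index of 1), STP2, PGM2 and YMR105W-A tied for the highest mean score, with 3100 in each Gcn4p IP, a value that recurs as the maximum of several lists. STP2 encodes a transcription factor of amino acid permease genes, and PGM2 a phosphoglucomutase. For MEP2 the closest were RRG7, TDA7 and ESL2, with a Jaccard index of 0.75 over the 12 IPs, tied among 7 promoters. These 3 had a peak in all 6 Gcn4p IPs and 1 wild-type Rtg3p IP.

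Among 26 other genes of nitrogen use, 4 had Gcn4p peaks in 2 or more wild-type IPs and 6 in 2 or more rtg3Δ IPs, beside 8.72% and 6.89% of all promoters. A single one, DAL5, had Rtg3p peaks in 2 wild-type IPs, beside 2.32% of all promoters with 2 or more. The Gcn4p scores of 2 of the 26 were separate and higher in rtg3Δ cells, beside 0.653% of all promoters, and of 0 separate and higher in the wild type, beside 0.855%. The highest mean Gcn4p scores were those of URE2, which encodes the cytoplasmic anchor of the activator Gln3p, and ATO3, for a putative ammonium exporter. URE2 scores were 912, 937 and 759.9 in the wild type and 894, 1146 and 1061 in rtg3Δ cells. ATO3 scores were 999, 914 and 716 in the wild type and 543, 555 and 886 in rtg3Δ cells. Both promoters overlapped between strains. The highest score of any factor among the 26 was at PUT4, for a proline permease, named after its values were seen, with Sut1p scores of 1238 and 3100 in wild-type IPs 1 and 2 and no Sut1p peak in the other 4 IPs. Sut1p peaks in 2 or more wild-type IPs and in no nrg1Δ IP were found at 1.15% of all promoters.

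The 2 genes separate between strains were UGA1, for GABA transaminase, a target gene of Uga3p, and NPR1, for a kinase that controls permeases. UGA1 had no Gcn4p peak in the wild type and scores of 171, 143 and 85.2 in rtg3Δ cells. NPR1 had 73.6 in wild-type IP 1 alone and 238, 101 and 87.3 in rtg3Δ cells. GLN3 was occupied in 2 IPs of each strain. DAL5, for allantoate permease, had Gcn4p peaks in 3 wild-type and 2 rtg3Δ IPs and had Rtg3p scores of 120 and 172 in the wild type and of 123 in 1 gcn4Δ IP. It thus differed from MEP2, which had no Rtg3p peak in gcn4Δ cells, but the difference between the promoters was not tested.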

How the data were processed

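ChIP-Seq was performed by the authors on 30 IPs of myc-tagged factors. Per the submitters' processing notes, CASAVA 1.8, Novoalign 2.07.0, MACS 1.4.0rc2 and build R64 were used. The deposited score in each list is the authors' MACS score of each peak, called per IP against INPUT without pooling. Gcn4p and Rtg3p had 3 INPUT samples per strain, whereas Nrg1p, Sut1p, Swi4p and Swi6p had 1 INPUT sample per strain. It is not a read count, so depth is unknown and no interval based on depth is given.

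Gene names and 6430 promoters of 600 bp came from the R64 RefSeq annotation (6431 nuclear genes, 1 without a strand). Starts of 21 peaks that preceded base 1 were moved to it, and positions are counted from 1. Each promoter took the highest overlapping score, or 0. Strains were compared by two-sided exact permutation over IPs at every promoter, with Benjamini-Hochberg adjustment over promoters with a peak. The smallest possible P is 0.1 for 3 against 3 IPs and 0.333 for 2 against 2, so no promoter could pass 0.05. The smallest adjusted P at any promoter was 1 for Gcn4p and for Rtg3p and 0.608 for Sut1p. Swi4p, with 1 IP per strain, was not tested. The functions were tested on simulated data.

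The members and lists were chosen with earlier results of these data known. Genes named are the 10 members, genes whose promoters lie under their peaks, the 3 promoters most alike in presence over 12 IPs (Jaccard index), and at most 6 of 26 other nitrogen genes with a peak in most IPs of a strain. PUT4 was named beyond these 6, after its values were seen. DUR1,2 of the 26 was matched by its systematic name. Alternatives were the midpoint of the peak in the promoter, overlaps from 100 bp, scores from 100, promoters of 300 bp, equal numbers of peaks, rank within the list, GLT1 and UGA3 as 1 promoter, leaving out each IP and a replicate block. No motif search was run here. Tools were pandas 2.3.3, NumPy 2.4.6 and Matplotlib 3.10.9 under Python 3.11.15.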

Additional observations from a re-analysis of the deposited data

How the results depend on the processing

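No comparison could reach 0.05, so the side of the threshold says nothing about stability. Of the recomputed values 11 moved beyond the spread between IPs or 1.5 times a count, and 10 turned direction. The difference in occupied listed promoters between wild-type and rtg3Δ Gcn4p IPs, 0.33, became -0.33 with an overlap of at least 100 bp and with the peak midpoint in the promoter (0 to 0.5 leaving out single IPs). For Gcn4p against Rtg3p in the wild type the difference of 3.33 became 2.67 and 1.67 under these rules, 1.67 with equal numbers of peaks and 2.33 with GLT1 and UGA3 as 1 promoter, and 1 listed promoter instead of 3 stayed separate with equal numbers. For Sut1p the difference of -1.33 became 0 with equal numbers and -0.667 with GLT1 and UGA3 as 1 promoter (-1.83 to -0.833 leaving out single IPs), and the 2 separate promoters became 0 with equal numbers and with a score of at least 100. Leaving out wild-type Rtg3p IP 3 made MEP2 separate from gcn4Δ cells, 1 promoter against 0 (range 0 to 1).

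Single-promoter differences turned direction as follows. MEP2 for Gcn4p, -82.0, ranged from -236 to 124 leaving out single IPs, and was 22.8 by percentile and 0.13 over the median of shared promoters, a scale added after seeing the data. GDH3, -307, ranged from -593 to 241 and was 5.66 and 0.43 on these scales. GLN1 for Sut1p, -4.88, ranged from -22.3 to 17.4, with 3.83 without wild-type IP 1 or 3, and MEP2 for Gcn4p against Rtg3p, -276, from -528 to 102, positive without Rtg3p IP 2. The cause was not tested.

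With a replicate block, listed promoters were counted where all differences of same-numbered IPs had the same sign. There were 2 for Gcn4p, 0 for Rtg3p, 2 for Sut1p and 3 for Gcn4p against Rtg3p. Promoters with separate scores always meet this rule, so it could not lower their number and is no check of it. The exact sign-flip test of 3 pairs cannot go below P = 0.25. Deviations of same-numbered IPs correlated at -0.25 to -0.0437 for Gcn4p, -0.000398 to 0.13 for Rtg3p, -0.191 to 0.43 for Nrg1p and 0.0676 to 0.169 for Sut1p. IPs of different numbers gave -0.0704 to 0.272, -0.102 to 0.0182, -0.456 to 0.284 and -0.172 to 0.0725 in this order. For Swi6p, same-numbered IPs gave 0.0202 and the others -0.0202, opposite values that 2 IPs per strain impose. The ranges overlapped for Gcn4p, Rtg3p, Nrg1p and Sut1p, and the numbers were not taken as pairs. Same-numbered values nevertheless reached higher for Rtg3p, Nrg1p and Sut1p, and lower for Gcn4p. Precision is limited by 3 IPs per strain and unknown depth, and the absence of a called peak does not show absence of binding.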
